A study of Ovis aries with 7 samples.

Results

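Transcripts of the Toll-like receptor family and of their co-receptor CD14 were examined in the hypothalamus of fetal sheep after a brief episode of low oxygen. The members were the non-control array probes named TLR followed by a number, or CD14, in the array's gene name column. This rule found 18 of 15008 probes, on 22 spots per array, for 10 of the 886 genes that could be named on the array: TLR1 to TLR9 and CD14. Another 3 probes fall outside the rule because the array names them only by a sequence tag, although its description calls 2 of them Toll-like receptor 10 (TLR10) and 1 a TLR4 precursor. They are given beside the members and are not counted among them.

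All 7 fetuses carried chronic catheters, were near the end of gestation, and each gave 1 hypothalamus and 1 array. In the hypoxia group (n = 3) the ewe breathed a gas low in oxygen for 30 min, and 30 min of normoxia followed. The age-matched control group (n = 4) stayed in normoxia over both periods, and hypothalami of both groups were taken 60 min after the onset. RNA of the whole tissue piece was labelled with the dye Cy3 and hybridised to a 1-colour Agilent sheep oligonucleotide array. In such bulk RNA, fewer cells of a type and less RNA per cell cannot be told apart.

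Toll-like receptors are membrane proteins that recognise conserved microbial molecules and products of damaged cells, and they signal through adaptors such as MYD88 to the transcription factor NF-kB and to interferon regulatory factors. CD14 hands bacterial lipopolysaccharide to TLR4, TLR2 pairs with TLR1 or TLR6 for lipopeptides, TLR5 binds flagellin, and TLR3, TLR7, TLR8 and TLR9 recognise nucleic acids in endosomes. In the brain, microglia are the cells best known for these receptors, and astrocytes, endothelium and some neurons have been described to carry several of them.

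Probe identity decides how the values can be read, since 2 probes of a gene may share most of their sequence. Each probe is a 60-base oligonucleotide, printed 5′ to 3′ as the array files list it, and capitals below mark the stretch that it shares with another probe of the same gene. The CD14 pair is shown because its members are shifted by a single base and share 59 bases, so they are nearly 1 measurement.
CD14 A_70_P030286: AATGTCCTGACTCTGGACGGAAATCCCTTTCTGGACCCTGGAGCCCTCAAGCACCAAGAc
CD14 A_70_P030287: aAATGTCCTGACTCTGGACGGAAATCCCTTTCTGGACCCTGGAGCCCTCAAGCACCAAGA
The member probe of TLR4 and the probe described as its precursor are shown because they share no long stretch, so they are separate readings. That the second reads the receptor rests on the array's description alone.
TLR4 A_70_P049612: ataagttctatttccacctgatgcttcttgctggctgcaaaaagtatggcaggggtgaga
TLR4 precursor A_70_P049611: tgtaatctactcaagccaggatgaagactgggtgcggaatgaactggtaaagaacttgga
The pair described as TLR10 is shown because it had the largest differences of the family, and it shares 36 bases.
TLR10 A_70_P049641: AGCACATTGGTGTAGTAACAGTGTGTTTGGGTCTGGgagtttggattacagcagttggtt
TLR10 A_70_P049642: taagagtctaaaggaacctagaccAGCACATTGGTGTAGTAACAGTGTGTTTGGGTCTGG
The TLR8 pair is shown because its probes share 59 bases and still differed in detection.
TLR8 A_70_P049621: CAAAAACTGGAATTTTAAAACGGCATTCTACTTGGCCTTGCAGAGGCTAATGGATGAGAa
TLR8 A_70_P049622: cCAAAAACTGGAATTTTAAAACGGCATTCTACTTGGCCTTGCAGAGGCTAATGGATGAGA
With probes of other genes on the array, on either strand, the longest stretch that a probe of the family shares was 12 to 16 bases. All 18 members matched an entry of the RefSeq table of the ARS-UI_Ramb_v3.0 assembly. In that annotation TLR10, TLR1 and TLR6 follow each other as neighbouring genes, and so do TLR7 and TLR8. The array files give the probes no genome position.

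Levels are log2 processed signals minus the 75th percentile of the array's non-control spots, so 0 is that percentile and 1 unit is a factor of 2. Levels are compared between arrays within a probe, never between probes. The scanner software marked a spot as well above background or not, and 13 member probes of 7 genes (CD14, TLR2, TLR3, TLR4, TLR5, TLR6 and TLR7) were well above background on all 7 arrays. The TLR1 probe was so on 5 arrays. Both probes of TLR8 and both of TLR9 were so on 1 or 0 arrays. Of the listed neuronal and hypothalamic genes 9 were named, among them the oxytocin gene OXT, the ACTH precursor gene POMC and the appetite peptide gene AGRP. All 9 were well above background on all 7 arrays. Most spots of every array were so marked, so this detection does not check tissue identity. Levels of such genes differed between arrays: OXT was at -1.12 on control replicate 4 and at 1.84 to 2.57 on the other controls. Between 77.2% and 86.4% of the spots of an array were well above background. The share was lowest on control replicate 1 (77.2%), followed by control replicate 2 (80.8%). It was 83.1% to 84.8% on the hypoxia arrays and 85.2% and 86.4% on control replicates 3 and 4. The 3 hypoxia arrays were on slide 1, control replicates 1 and 2 on slide 2 and control replicates 3 and 4 on slide 3, so slide and group cannot be told apart, and each difference is also given against the controls of 1 slide where that matters.

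**Figure D1:**
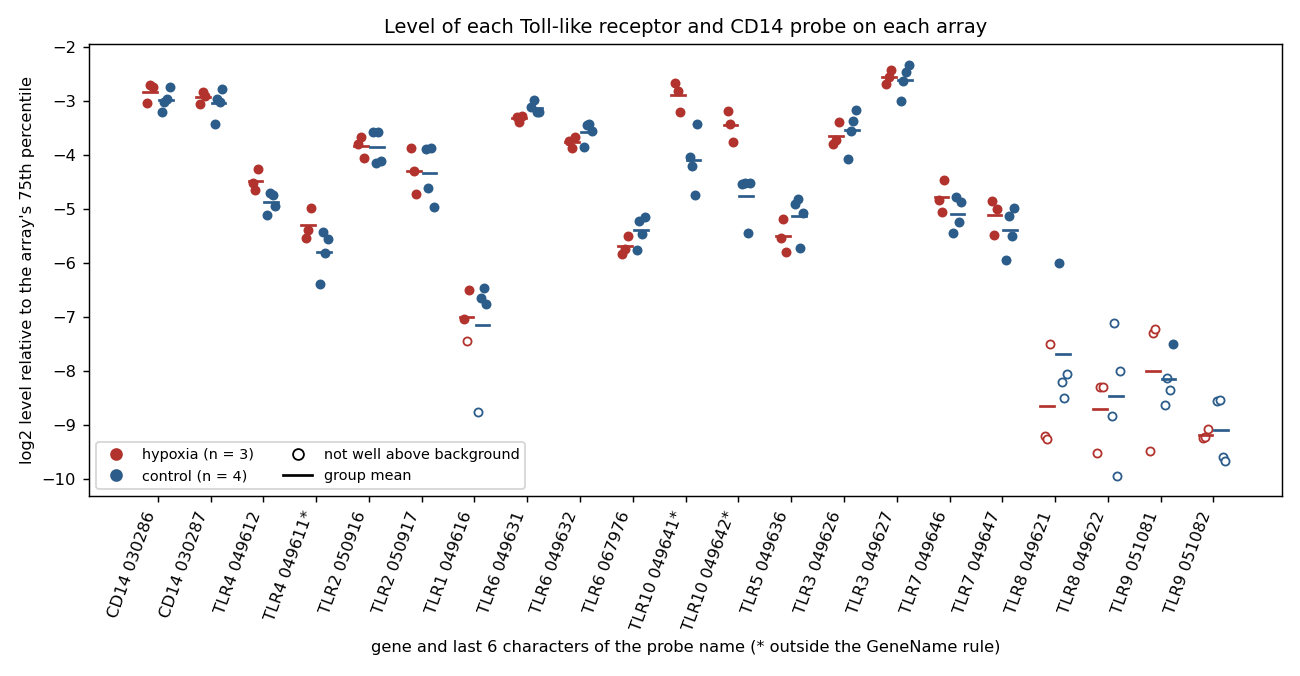
Level of every member probe and of the 3 probes outside the rule (marked with an asterisk), with 1 point per array, hypoxia in red and control in blue; the y axis is the log2 level relative to the array's 75th percentile and the bars are group means. Open points, which were not well above background, make up nearly all of TLR8 and TLR9, and the TLR10 points of the 2 groups do not overlap.

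No member passed the threshold. The comparison was made with limma over the 12712 probes that the scanner software found well above background on 3 or more of the 7 arrays, with Benjamini-Hochberg adjustment at 0.05. Of the 14 member probes tested, covering 8 genes, 0 had an adjusted p under 0.05, where 0.0157% of all tested probes (2 probes) did. Their adjusted p ran from 0.278 to 0.974. Only TLR4, 1 of 14 probes or 7.14%, had an unadjusted p under 0.05, where 15.7% of all tested probes did. By estimate 9 members (64.3%) were higher and 5 lower in hypoxia, and 54.7% of all tested probes were higher. The median log2 difference, hypoxia minus control, was 0.048 over the 14 probes and 0.028 over all tested probes. In 2 of the 14 probes, or 14.29%, the hypoxia values did not overlap the control values, TLR4 on the higher and 1 TLR6 probe on the lower side, where this held for 16.1% of all tested probes. The half-width of the 95% confidence interval, which is not adjusted for the number of probes, ran from 0.238 to 1.303 on the log2 scale. An estimate smaller than the half-width of its probe could not be told from 0 with 7 arrays. The adjusted threshold asked for more, since the TLR4 member exceeded its half-width and did not pass.

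CD14, the lipopolysaccharide co-receptor, stood at levels of -3.04, -2.71 and -2.74 on hypoxia replicates 1 to 3 with probe A_70_P030286. On control replicates 1 to 4 its levels were -3.21, -3.02, -2.97 and -2.75. Control replicates 2, 3 and 4 lay inside the hypoxia range, so the groups overlapped. The log2 difference was 0.15 (SE 0.14, 95% confidence interval -0.18 to 0.49, limma adjusted p = 0.619). The probe shifted by 1 base, A_70_P030287, had levels of -3.05, -2.83 and -2.91 against -3.42, -2.96, -3.01 and -2.78, and a difference of 0.11 (SE 0.16, adjusted p = 0.764). Control replicate 1 was the lowest array on both probes. Without it the differences were 0.08 and -0.01. Against slide 2 alone they were 0.28 and 0.26, and against slide 3 alone 0.03 and -0.04. Slide 2 holds control replicates 1 and 2 and slide 3 replicates 3 and 4, so slide and spread between fetuses cannot be told apart here. After each probe was centred on its own mean, the pair differed by a root mean square of 0.088 over the 7 arrays, while the probes varied by 0.174 and 0.196 about their means.

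TLR4, the lipopolysaccharide receptor, was the member with the smallest unadjusted p. Its levels with probe A_70_P049612 were -4.52, -4.65 and -4.26 on the hypoxia arrays and -5.11, -4.70, -4.74 and -4.94 on the controls. All 3 hypoxia values lay above all 4 controls, by a narrow margin between hypoxia replicate 2 and control replicate 2; for 8.75% of all tested probes the hypoxia values lay above all controls. The difference was 0.39 (SE 0.15, 95% confidence interval 0.05 to 0.74), or 1.31-fold, with an unadjusted p = 0.0306 and a limma adjusted p = 0.278. The probe described as a TLR4 precursor, A_70_P049611, had levels of -5.54, -5.38 and -4.99 against -6.38, -5.43, -5.81 and -5.56. Here control replicate 2 lay inside the hypoxia range. That probe's difference was 0.49 (SE 0.25, 95% confidence interval -0.09 to 1.07, adjusted p = 0.374). After centring, the 2 probes differed by a root mean square of 0.224, while the member varied by 0.254 and the other by 0.399 about their means. Both estimates were above 0 in each of the 22 alternative settings, the member's between 0.23 and 0.48 and the other's between 0.17 and 0.62. Several of these settings change only the standard error or the set of probes, so they could not turn a sign. The member's difference was 0.43 against slide 2 and 0.36 against slide 3.

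The genes whose pattern over the 7 arrays was most like that of CD14 and TLR4 were sought among 761 named genes, as the smallest root mean square difference between centred levels. For CD14 they were TYROBP, a signalling adaptor of microglia and other myeloid cells (0.076), the axon guidance receptor gene ROBO2 (0.078) and the cell cycle inhibitor gene CDKN1B (0.086). For TLR4 they were the bicarbonate transporter gene SLC4A4 (0.075), the astrocyte water channel gene AQP4 (0.108) and JUN (0.108), a subunit of the transcription factor AP-1. CD14 itself varied by 0.174 and TLR4 by 0.254 about their means. With 7 arrays that share 3 slides, this likeness is a description of these arrays.

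**Figure D2:**
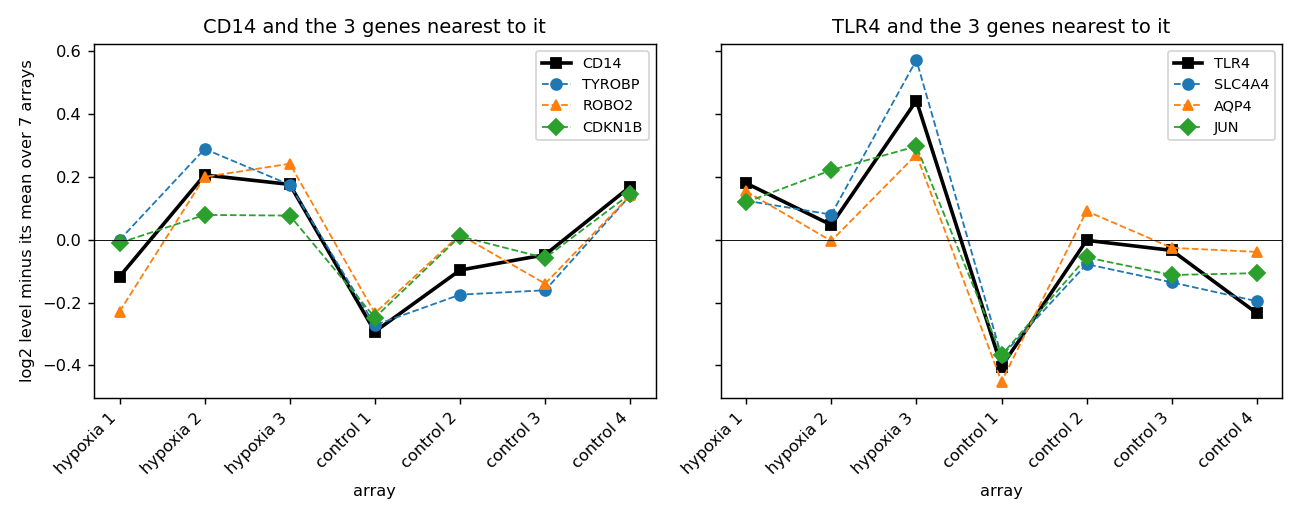
Centred log2 level (level minus its mean over the 7 arrays, y axis) of CD14 (left) and TLR4 (right), as black lines, and of the 3 named genes nearest to each, as dashed lines, on each array (x axis). Control replicate 1 is the lowest array of both receptors, and hypoxia replicate 3 is the highest for TLR4.

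TLR2 recognises bacterial lipopeptides together with TLR1 or TLR6. Its probe A_70_P050916 is printed on 5 spots per array, which gave a standard deviation within an array of 0.041 to 0.142. The mean levels were -3.79, -3.67 and -4.05 in hypoxia and -3.58, -4.15, -3.58 and -4.12 in control. Control replicates 1 and 3 lay above and control replicates 2 and 4 below all 3 hypoxia arrays, and the values of the 7 arrays lay farther apart than the 5 spots of an array. The difference was 0.02 (SE 0.19, 95% confidence interval -0.43 to 0.47, adjusted p = 0.974). With probe A_70_P050917 the levels were -3.87, -4.29 and -4.73 against -3.89, -4.61, -3.88 and -4.96, and the difference was 0.04 (SE 0.32, adjusted p = 0.965). The control pairs kept their order there, replicates 1 and 3 above replicates 2 and 4. The sign of either estimate turned under several settings.

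TLR1, a partner of TLR2, was the only tested member not well above background on every array. Its levels were -7.04, -7.45 and -6.50 in hypoxia and -8.75, -6.65, -6.45 and -6.76 in control, with hypoxia replicate 2 and control replicate 1 not well above background. The groups overlapped. The difference of 0.16 (SE 0.56, 95% confidence interval -1.14 to 1.46, adjusted p = 0.913) rested on control replicate 1, without which it was -0.37.

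TLR6, the other partner of TLR2, had 3 probes, each with an estimate below 0. With A_70_P049631 the levels were -3.29, -3.38 and -3.28 in hypoxia and -3.10, -2.99, -3.21 and -3.21 in control. All hypoxia values lay below all controls on this probe, as they did for 7.38% of all tested probes. Its difference was -0.19 (SE 0.10, 95% confidence interval -0.42 to 0.05, adjusted p = 0.406). A_70_P049632 had levels of -3.74, -3.87 and -3.67 against -3.85, -3.45, -3.43 and -3.56, a difference of -0.19 (SE 0.13, adjusted p = 0.509). A_70_P067976 had levels of -5.83, -5.74 and -5.50 against -5.76, -5.21, -5.45 and -5.15, a difference of -0.29 (SE 0.17, adjusted p = 0.429). On these last probes control replicate 1 lay inside the hypoxia range, so the groups overlapped. All 3 estimates stayed below 0 in each of the 22 alternative settings, between -0.47 and -0.05, and none passed the threshold in any. As for TLR4, several of these settings leave an estimate unchanged.

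TLR10, a receptor best known from B cells, was represented only by the pair that the array names by description. Their identity rests on that description alone and was not checked against a transcript. With A_70_P049641 the levels were -2.67, -2.81 and -3.20 in hypoxia and -4.04, -4.21, -4.74 and -3.42 in control. The lowest hypoxia array lay above the highest control, replicate 4. The difference was 1.21 (SE 0.30, 95% confidence interval 0.51 to 1.90), or 2.31-fold, with an unadjusted p = 0.00417 and an adjusted p = 0.175 in limma. With A_70_P049642 the levels were -3.19, -3.42 and -3.76 in hypoxia and -4.53, -4.52, -5.45 and -4.52 in control, again without overlap. Its difference was 1.30 (SE 0.26, 95% confidence interval 0.68 to 1.92), or 2.46-fold, with an unadjusted p = 0.0014 and an adjusted p = 0.125. Neither passed the adjusted threshold, in the reported fit or in any of the 22 alternatives, over which the estimates ran from 0.78 to 1.53. Since the probes share 36 bases of their sequence, they are not independent of each other.

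The normexp correction subtracts the local background of each spot, fits a model to the signals of the array and adds an offset of 50. The offset by construction narrows log2 differences of dim probes. This correction gave the lowest TLR10 values, 0.84 and 0.92 with the first probe and 0.78 and 0.87 with the second. Against slide 2 alone the TLR10 differences were 1.23 and 1.07, and against slide 3 alone 1.19 and 1.53. Among lymphocyte markers, 5 of 14 listed genes were named on the array, none of them specific to B cells. CD4 was not well above background on any array. The summed level of that list, in multiples of the array's 75th percentile, was 0.909 to 1.36 in hypoxia and 0.599 to 0.723 in control. CD247, the zeta chain of the T cell receptor, made up 87.8% to 89.8% of that sum in hypoxia and 62.5% to 76.1% in control, and without it the sum over the tested genes was 0.111 to 0.141 in hypoxia and 0.157 to 0.271 in control. Of its 4 tested genes, CD247 stood at 1.17 (SE 0.17, adjusted p = 0.0888) and CD5 at 0.39 (SE 0.29), while CD3E and CD3D, which encode CD3 chains of the T cell receptor, had -1.08 (SE 0.22) and -0.53 (SE 0.21). The other CD3E probe gave -0.50. The part of these cells in the TLR10 values was not tested.

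**Figure D3:**
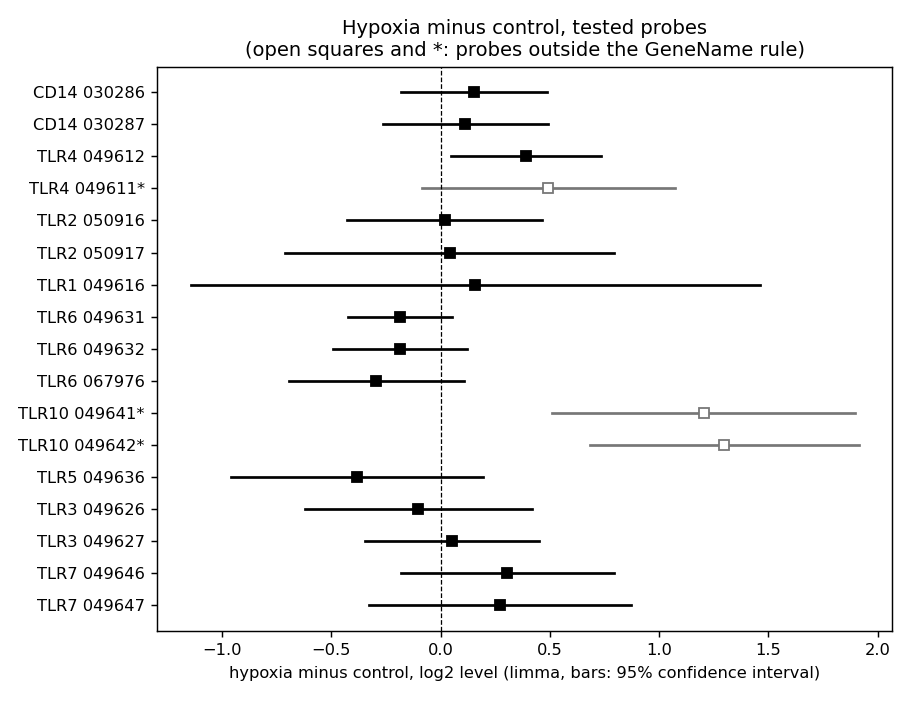
Hypoxia minus control on the log2 scale (x axis) for the 14 tested member probes (filled squares) and the 3 probes outside the rule (open squares), with bars for the 95% confidence interval of the limma fit. The interval of the TLR4 member probe, 0.05 to 0.74, and those of both TLR10 probes lie above 0, and the widest, of TLR1, runs from -1.14 to 1.46.

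TLR5, the flagellin receptor, had 1 probe, A_70_P049636. Its levels were -5.54, -5.19 and -5.79 in hypoxia and -4.90, -4.81, -5.72 and -5.07 in control. Control replicate 3 lay inside the hypoxia range, and the other controls lay above it. The difference was -0.38 (SE 0.25, 95% confidence interval -0.96 to 0.19, adjusted p = 0.469). It was -0.65 against slide 2, -0.11 against slide 3 and -0.13 with the normexp background and the same scaling, so its size depended on the controls and on the background correction with its offset.

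TLR3, the receptor for double-stranded RNA in endosomes, gave estimates of opposite sign with its 2 probes, which share 30 bases. With A_70_P049626 the levels were -3.80, -3.72 and -3.40 in hypoxia and -4.07, -3.56, -3.37 and -3.16 in control, a difference of -0.10 (SE 0.22, adjusted p = 0.848). With A_70_P049627 they were -2.68, -2.55 and -2.43 against -3.00, -2.63, -2.47 and -2.33, a difference of 0.05 (SE 0.17, adjusted p = 0.901). On both probes control replicate 1 was the lowest and control replicate 4 the highest array, with the hypoxia arrays between them.

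TLR7, a receptor for single-stranded RNA, had estimates above 0 with both probes. With A_70_P049646 the levels were -4.83, -5.05 and -4.46 in hypoxia and -5.45, -4.78, -5.24 and -4.87 in control, a difference of 0.31 (SE 0.21, 95% confidence interval -0.18 to 0.80, adjusted p = 0.495). A_70_P049647 had levels of -4.86, -5.48 and -4.99 against -5.93, -5.12, -5.49 and -4.99, a difference of 0.27 (SE 0.26, adjusted p = 0.626). The groups overlapped on both. Over the 22 alternative settings the estimates ran from 0.02 to 0.46, lowest with the normexp background and quantile normalization.

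TLR8, the neighbour of TLR7 in the genome and likewise a receptor for single-stranded RNA, was well above background on control replicate 1 alone, with A_70_P049621. Its level there was -6.00, against -8.50 to -8.06 on the other controls and -9.26 to -7.49 in hypoxia. The 3 other controls were not well above background, so no fold is given. A_70_P049622, which shares 59 bases with it, was at -8.83 on the same array and not well above background on any. TLR9, the receptor for unmethylated CpG DNA, was well above background on control replicate 4 alone with A_70_P051081, at -7.50, and on no array with A_70_P051082. With A_70_P051081 hypoxia replicates 2 and 3 had higher levels, -7.30 and -7.21, that were not marked as well above background. Levels of TLR8 and TLR9 were not tested.

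**Figure D4:**
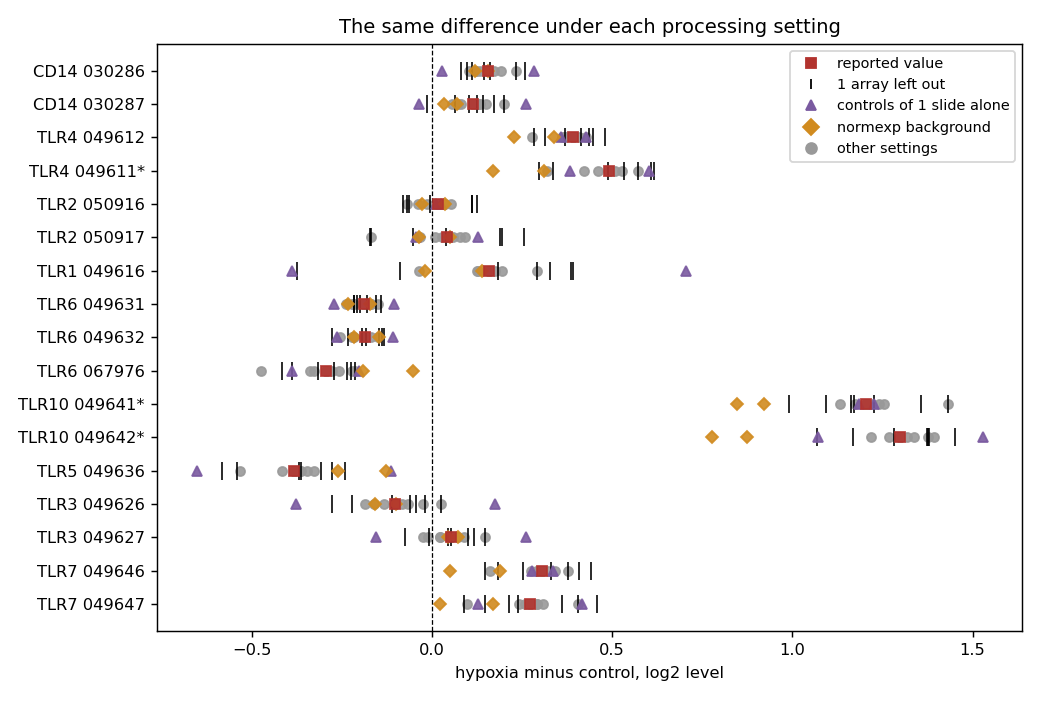
Hypoxia minus control on the log2 scale (x axis) of each tested probe under the reported setting (red squares), with 1 array left out (ticks), against the controls of 1 slide (triangles), with normexp background (diamonds) and in the other settings (grey circles). Every marker of TLR4, TLR7 and TLR10 lies above 0 and every marker of TLR5 and TLR6 below, while those of TLR1, TLR2, TLR3 and the second CD14 probe lie on both sides.

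Of 90 gene symbols listed for the pathway, with CXCL8 also listed under its older symbol IL8, 29 were named on the array. Of these 27 were tested, and 0 passed the adjusted threshold. By estimate 17 were higher and 10 lower, with a median log2 difference of 0.14, where 54.7% of all tested probes were higher and their median was 0.028. An unadjusted p under 0.05 was found for 5 of 27, or 18.52%, 4 of them higher, and the groups did not overlap for 4, or 14.81%, against 15.7% (8.75% higher and 6.91% lower) and 16.1% of all tested probes. The lipopolysaccharide partners LY96 and LBP and the accessory receptor CD36 were not named on the array. Among adaptors and proximal kinases, the first steps after the receptors, 3 of 16 listed genes were named, all 3 lower by estimate. MYD88, the adaptor of nearly all family members, had a difference of -0.05 (SE 0.16), and its other probe gave 0.09. The kinase IRAK4 was at -0.11 (SE 0.15), and its other probe at -0.31. TRAF3, which leads to interferon induction, was at -0.15 (SE 0.15), and its other probe at -0.18.

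The kinases and transcription factors of the pathway had 5 of 6 estimates above 0 and a median of 0.53, where 54.7% of all tested probes were above 0 with a median of 0.028. The kinase gene IKBKB was at 0.39 (SE 0.16), and its other probe at -0.13. NFKBIA, the inhibitor that NF-kB itself induces, had levels of 1.78, 2.76 and 0.94 in hypoxia and 0.37, 0.67, 0.43 and 0.24 in control. All hypoxia values lay above the controls, with hypoxia replicate 2 the highest. The difference was 1.40 (SE 0.38, 95% confidence interval 0.52 to 2.29, adjusted p = 0.197), and 0.93 without hypoxia replicate 2. IRF1, an interferon regulatory factor, was high on hypoxia replicate 2 alone, at -2.23, against -5.01 and -4.48 on the other hypoxia arrays and -5.00 to -4.30 in control. Its difference of 0.67 (SE 0.61, adjusted p = 0.610) was -0.17 without that array. IRF3, the factor that TLR3 and TLR4 activate through the adaptor TICAM1, was at -0.22 (SE 0.11, adjusted p = 0.392).

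Among the genes that the pathway induces, 10 of 14 tested had estimates above 0, with a median of 0.16, and hypoxia replicate 2 stood out for several. CXCL8, a chemokine for neutrophils, was at -1.20 on that array, against -4.85 and -4.54 on the other hypoxia arrays and -5.25 to -4.48 in control. The CXCL8 difference of 1.38 (SE 0.82, adjusted p = 0.436) was 0.22 without hypoxia replicate 2, and its other probe gave 2.63 with all arrays. ICAM1, an adhesion molecule singled out here after its values were seen, showed the same pattern, at -1.87 on that array and -5.74 to -4.60 on the 6 others. On that array the TLR4 member probe was the lowest of the 3 hypoxia values, at -4.65, and the precursor probe the middle one, at -5.38. The CD14 probes were the highest of the 3 there, at -2.71 and -2.83; on the first probe this was the highest of all 7 arrays.

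CXCL10, an interferon-induced chemokine, went the other way, with levels of -4.08, -3.36 and -4.24 in hypoxia and -2.83, -3.03, -3.30 and -1.67 in control. The groups did not overlap, and the difference was -1.18 (SE 0.40, 95% confidence interval -2.12 to -0.25, adjusted p = 0.250), or -0.84 without control replicate 4. For IL1B, an inflammatory cytokine, the difference was 0.40 (SE 0.19, adjusted p = 0.359), and 0.22 without hypoxia replicate 1. IL6 and TNF, cytokines induced by the same receptors, had differences of 0.03 (SE 0.12) and -0.25 (SE 0.26). PTGS2, the inducible cyclooxygenase, had a difference of 0.19 (SE 0.54), with control replicate 4 the highest array at -0.81. IL12B and SELE were not well above background on any array. Biglycan (BGN), a matrix proteoglycan that TLR2 and TLR4 can bind, was at -0.46 (SE 0.21, adjusted p = 0.339), and -0.24 without hypoxia replicate 1. The other endogenous ligands measured were higher by estimate, the heat shock protein gene HSPA1A at 0.14 (SE 0.20) and the serum amyloid gene SAA3 at 1.35 (SE 1.12), the latter with control replicate 2 not well above background.

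**Figure D5:**
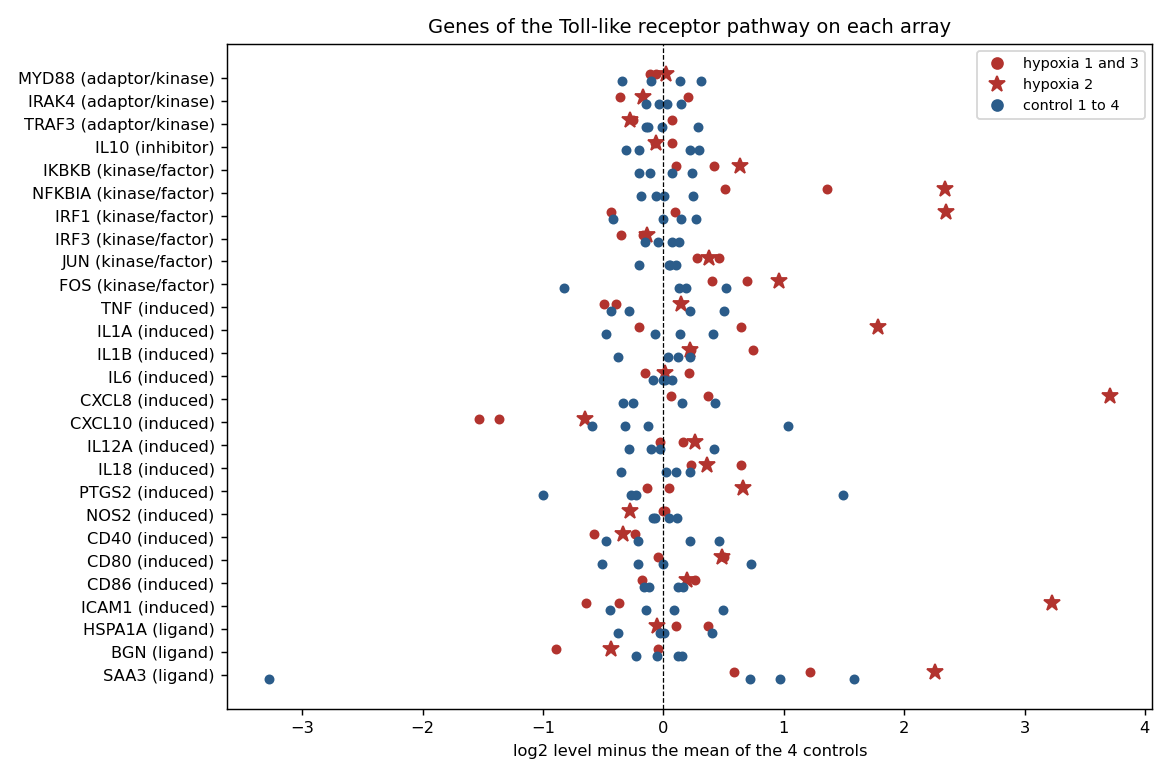
Log2 level of the 27 tested pathway genes on each array, minus the mean of the 4 controls (x axis), with hypoxia in red and control in blue and hypoxia replicate 2 as a star. CXCL8, ICAM1 and IRF1 lie far to the right on hypoxia replicate 2 alone, NFKBIA lies to the right on all 3 hypoxia arrays, and CXCL10 lies to the left on all 3.

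Cell type markers were set beside the receptors because cell makeup could differ between the dissected pieces. Of 20 microglia and macrophage markers 5 were named on the array, with 3 higher and 2 lower by estimate and a median of 0.22. These were the protease gene CTSS at 0.44 (SE 0.19), TYROBP at 0.27 (SE 0.13), the integrin gene ITGAM at 0.22 (SE 0.20), FCER1G at -0.14 (SE 0.17) and LYZ at -0.71 (SE 0.41). Their summed level was 4.20 to 4.59 in hypoxia and 2.75 to 4.44 in control, with control replicate 1 the lowest array, as for CD14 and TLR4. That array was also the lowest for TLR1, TLR3 and TLR7, though not for TLR2, TLR5, TLR6 or TLR10. It was the lowest for the astrocyte sum (44.5) and the neuronal and hypothalamic sum (19.9) as well. It had the lowest share of spots well above background, 77.2%, so being lowest there is not particular to microglial genes. CTSS had the highest signal of the 5 on every array and so weighs most in that sum. Its levels were 1.64, 1.67 and 1.74 in hypoxia and 0.83, 1.68, 1.18 and 1.29 in control. The sum without CTSS was not taken, so the range is largely that of 1 gene. Among astrocyte markers all 5 measured were higher by estimate, with a median of 0.45 and a summed level of 63.4 to 72.4 in hypoxia and 44.5 to 63.5 in control. AQP4 made up 78.0% to 85.0% of that sum on the 7 arrays, and without it the sum was 12.6 to 13.9 in hypoxia and 8.24 to 11.1 in control. AQP4 and SLC4A4, named above as near to TLR4, belong to that list.

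Endothelial markers were lower in 4 of 5, with a median of -0.29, FLT1 being the exception at 0.56 (its other probes gave -0.28 and -0.53). Meningeal and fibroblast markers were lower in 5 of 5, with a median of -0.82. Their summed level was 9.43 to 14.6 in hypoxia and 11.2 to 32.0 in control. Control replicate 2, at 11.2, lay inside the hypoxia range, so the groups overlapped. The neuronal and hypothalamic markers had a median of 0.03 over 9 genes. For neutrophils and blood monocytes only ITGB2 was named, at -0.22 (SE 0.17; its other probe gave 0.03), and no oligodendrocyte marker was. None of these markers passed the adjusted threshold, and the part of cell makeup in the receptor values was not tested.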

How the data were processed

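Arrays of 3 hypoxia and 4 control fetuses were grouped by the sample titles, and each array was taken as 1 fetus. Per the file headers, Agilent Feature Extraction 10.1.1.1 produced the deposited spot intensity values (processed signal: background-subtracted, with a surrogate where a spot was not above background). The deposited value table holds log2 of that signal, as a comparison within 5.0e-09 showed, with no scaling between arrays (column medians 8.31 to 8.87: 8.69, 8.48 and 8.62 for hypoxia, 8.31, 8.34, 8.87 and 8.60 for control); it is therefore an uncentred log2 level, not a ratio. Which statistical test the authors used was not stated in the labels or files.

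From the scanner files, control spots and outlier spots were left out, saturated spots kept, and spots of 1 probe averaged. Log2 processed signals minus the array's 75th percentile were compared in limma 3.58.1 (R 4.3.3; lmFit and eBayes, 2-sided) over the 12712 probes found well above background on 3 or more arrays, with Benjamini-Hochberg adjustment. The fit was tested on simulated data. A listed gene was read from its brightest probe; probes were named through the RefSeq table of ARS-UI_Ramb_v3.0 or the array's own names (1443 of 15008 named). Pathway genes named are a fixed core set wherever measured, plus the 3 genes nearest to CD14 and to TLR4. TRAF3, IKBKB, ICAM1, IL12B, SELE, HSPA1A, SAA3 and marker genes are examples from the lists. Members and lists were chosen with earlier results of these data known. Alternatives were other scalings (array median, quantile, the percentile over probes seen on all arrays, deposited values), normexp (offset 50), other filters, slide as a random block, controls of 1 slide, a replicate block (without control replicate 4), leaving out each array, another prior, array weights and the mean of a gene's probes. Other filters, the slide block and another prior left the estimates as they were. The number of arrays limits the precision. Some probe sequences are not reported here.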

Additional observations from a re-analysis of the deposited data

Results flagged for a closer look

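In 29 sets of 4 control values (tested members, the probes described as TLR10 and TLR4, and the pathway genes of the core set), 2 had 1 value far from the other 3, where chance gives about 1 in 20, or 1.45. On control replicate 1, TLR1 (probe A_70_P049616) was not well above background, at -8.75, while the other controls lay between -6.76 and -6.45. On control replicate 3, TLR10 (probe A_70_P049642) was at -5.45, while the other controls lay between -4.53 and -4.52; without that array the TLR10 difference was 1.07 with this probe and 0.99 with A_70_P049641.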

How the results depend on the processing

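No member probe passed the adjusted threshold under any alternative. Over all tested probes the count past the threshold was 2 in the reported fit, 0 with quantile scaling, the percentile over probes seen on all arrays, no filter or the replicate block, 4 against slide 3 or with array weights, 10 with the deposited values or with normexp and the 75th percentile, 25 over probes well above background on all arrays, 35 with normexp and quantile normalization, 57 with a trended and robust prior and 232 against slide 2, and 0 to 6 with 1 array left out. In the pathway and marker lists 0 passed in the reported fit and 1, CD247, with normexp and quantile normalization, over probes seen on all arrays or with the trended and robust prior.

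Estimates of some members and pathway genes turned sign. The second CD14 probe was at -0.035 against slide 3 (-0.014 to 0.201 with 1 array left out). TLR1 was at -0.387 against slide 3, -0.019 with normexp and quantile normalization and -0.037 with array weights (-0.374 to 0.392 with 1 array left out). TLR2 A_70_P050916 was at -0.014 with median scaling, -0.038 with quantile, -0.027 with normexp and quantile, and -0.069 with the replicate block (-0.079 to 0.125 leaving out 1 array). TLR2 A_70_P050917 was at -0.034 with quantile, -0.036 with normexp and quantile, -0.045 against slide 2 and -0.169 with the replicate block (-0.173 to 0.256). TLR3 A_70_P049626 was at 0.174 against slide 2 and 0.025 with the replicate block (-0.277 to 0.025), and A_70_P049627 at -0.154 against slide 3, -0.012 with array weights and -0.024 as the mean of both probes (-0.076 to 0.148). MYD88 was at 0.172 against slide 3 (-0.167 to 0.052), IRAK4 ran from -0.267 to 0.017 and IRF1 from -0.168 to 1.22 with 1 array left out, TNF was at 0.116 against slide 2, IL6 at -0.007 with median and -0.081 with quantile scaling (-0.071 to 0.116), and PTGS2 at -0.441 against slide 3 (-0.142 to 0.688). The replicate block leaves out control replicate 4, so its estimates are those of the fit without that array. The cause of the turns was not tested.

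Replicates 1 to 3 carry the same numbers in both groups, but deviations of same-numbered arrays correlated at only 0.121, 0.088 and 0.107. The numbers were therefore not taken as pairs, although each hypoxia array correlated best with its own number. With the replicate block TLR4 was at 0.37 and the TLR10 probes at 1.43 and 1.38, the same as with control replicate 4 left out and no block. Members at the detection limit, TLR1, TLR8 and TLR9, are limited by signal over background.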
